A study of Mus musculus with 6 samples.

Results

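Cytotoxic lymphocytes kill by releasing granules, and the genes described here encode 9 parts of that machinery: the granzymes *Gzma*, *Gzmb* and *Gzmc*, the pore-forming protein *Prf1*, the granule membrane protein *Nkg7*, the granule proteoglycan *Srgn*, the cathepsin *Ctsw*, and *Serpinb6b* and *Serpinb9*, 2 protease inhibitors of the cell interior. They were chosen by name and matched by symbol in the deposited count table, which lists 54525 genes, and all 9 passed the filter on low counts together with 13605 genes in all. RNA was sequenced from 3 WT and 3 *Abat* cKO samples of T cells activated under the TH0 condition. Mice of both genotypes were 6 to 8 weeks old and of the C57BL/6N strain by the labels, and the T cells came from lymph nodes and spleen. Naive CD4+ cells of both genotypes had received IL-2 and plate-bound antibodies to CD3 and CD28 for 36 h, with no polarizing cytokine and no drug. The *Abat* cKO mice carry a floxed *Abat* allele, from which a Flippase strain had removed the targeting cassette, and *Cd4*-Cre, which is active in both CD4+ and CD8+ T cells, so the deletion is not limited to the cells cultured here. ABAT is the transaminase that breaks down GABA. WT mice are named by their strain alone, no littermates were named, and the reporting summary has the 2 genotypes activated and harvested separately, so that the effect of the genotype and that of mouse line or culture cannot be told apart. The legend of the study calls the samples independent biological samples, and no batch was given.

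In a cytotoxic lymphocyte, granzymes are stored as active serine proteases on the acidic proteoglycan serglycin, and perforin opens the way for them into the cytosol of a target cell. Granzyme B cleaves after aspartate and starts programmed cell death, whereas granzyme A is a tryptase-like protease with other substrates. Killer cells protect themselves with inhibitory serpins, of which mouse *Serpinb9* encodes an inhibitor of granzyme B and *Serpinb6b* an inhibitor of granzyme A. This machinery is best known from CD8+ T cells and natural killer (NK) cells, and CD4+ T cells can express parts of it after activation.

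Gene counts per sample totalled 19566016 to 24396746, and spike-in controls took 0.817% to 1.003% of all counts. On the first principal component, which held 63.7% of the variance, the genotypes lay apart. On the second (17.7%), WT replicate 3 (-15.7) and *Abat* cKO replicate 1 (-29.0) stood apart from the other 4 samples (8.61 to 15.02). *Abat* itself had 5, 1 and 0 counts in WT and 7, 3 and 2 in *Abat* cKO, too few to check the genotype labels. Because WT replicate 3 was the lowest WT sample for 9 of the 9 granule genes, against 38.4% of all genes tested, the granule genes are also described without it, as are related genes whose call ended or whose called log2 fold change moved by more than 1.5 times. In bulk samples, fewer cells of a type and less RNA per cell cannot be told apart.

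Of the 9 granule genes, *Gzma*, *Prf1*, *Srgn* and *Serpinb6b* were higher in *Abat* cKO, *Ctsw* was lower, and *Gzmb*, *Gzmc*, *Nkg7* and *Serpinb9* did not pass the test (edgeR's quasi-likelihood test, Benjamini-Hochberg adjusted p under 0.05). These 5 calls stand against 31.5% of all genes tested (18.1% higher and 13.4% lower). The median log2 fold change (*Abat* cKO over WT) of the 9 genes was 0.81, and that of all genes tested was 0.0046. The levels of 8 of the 9 genes did not overlap between the genotypes, 7 higher and 1 lower, where 45.9% of all genes tested did not overlap (25.4% higher and 20.5% lower). These counts and the median include *Gzma* and *Gzmc*, which in WT replicate 3 (8 and 7 counts) were below the level that the filter asks of 3 samples. Both genes needed the *Abat* cKO samples to pass the filter, so a lower call was hardly possible for them. Without WT replicate 3, 6 granule genes were higher, *Gzmb* and *Serpinb9* now among them, and 1 was lower, against 27.7% of all genes tested called (15.2% higher and 12.6% lower), and the median of the 9 was 0.53. With *Abat* cKO replicate 1 left out as well, 6 were higher and 1 was lower, against 37.6% (20.0% higher and 17.6% lower), and the median was 0.59.

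**Figure D1:**
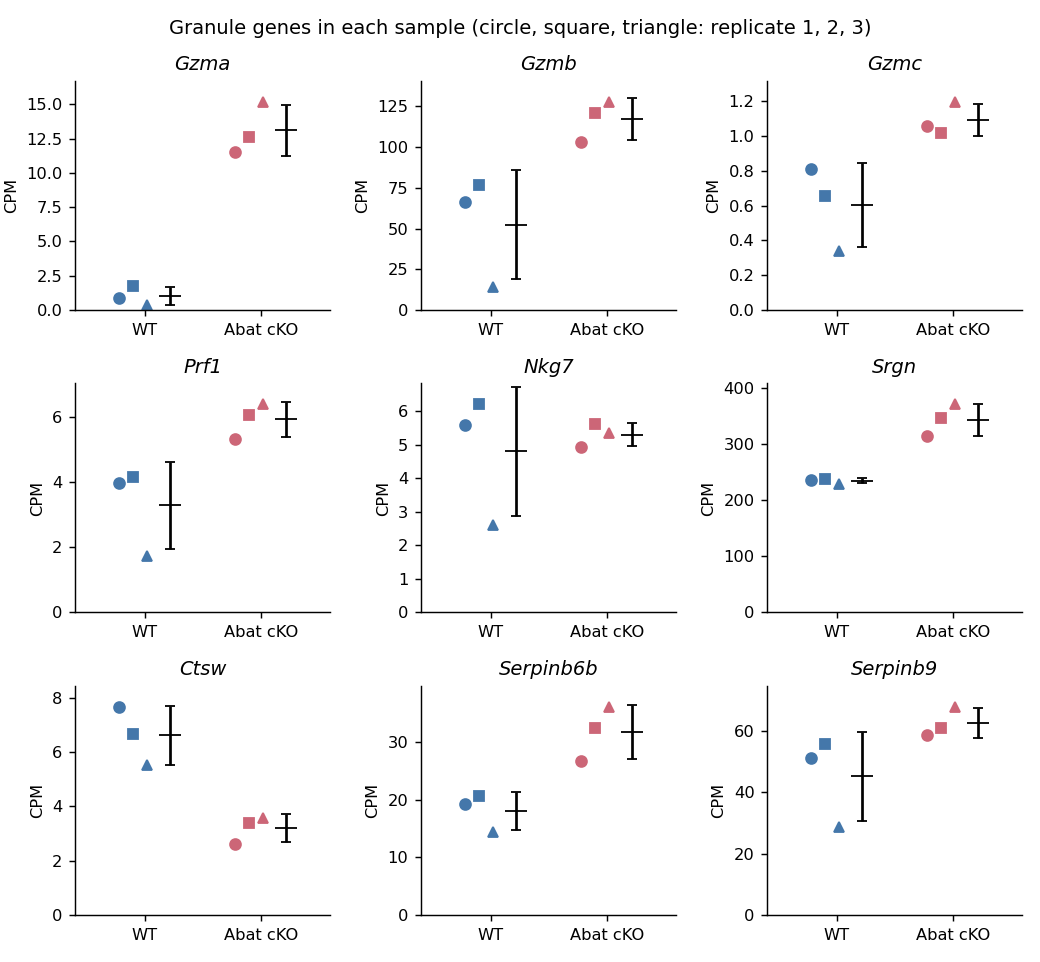
Level of each of the 9 granule genes in CPM (the usual count relative to the library total, with totals scaled by the trimmed mean of M-values, TMM) in 3 WT (blue) and 3 *Abat* cKO (red) samples, with the mean and SD in black beside the points and a separate linear axis from 0 for each gene. The triangle of WT replicate 3 is the lowest WT point in every panel, and only the panel of *Nkg7* has overlapping genotypes.

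Per length of the gene, *Srgn* was the most abundant of the 9 transcripts in WT, at 136 CPM per kb. It was followed by *Gzmb* at 36.5 ± 23.3 (SD, n = 3), *Serpinb9* at 13.0, *Serpinb6b* at 8.22, *Nkg7* at 5.45, *Ctsw* at 5.37, *Prf1* at 1.33, *Gzma* at 1.01 and *Gzmc* at 0.673 CPM per kb. The sample ranges of all neighbours in this order overlapped, except those of *Srgn* and *Gzmb* and those of *Ctsw* and *Prf1*. In *Abat* cKO the order was *Srgn* (199 CPM per kb), *Gzmb* (81.6), *Serpinb9* (18.0), *Serpinb6b* (14.5), *Gzma* (13.2), *Nkg7* (6.02), *Ctsw* (2.60), *Prf1* (2.40) and *Gzmc* (1.22). *Gzma* thus stood in the eighth place in WT and in the fifth place in *Abat* cKO, where its range overlapped that of *Serpinb6b*. The ranges of *Ctsw* and *Prf1* also overlapped in *Abat* cKO, and those of the other neighbours did not.

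*Gzma*, which encodes granzyme A, had the largest fold change of the 9 genes. Its level was 0.903, 1.71 and 0.387 CPM in the 3 WT samples and 11.5, 12.6 and 15.2 CPM in the 3 *Abat* cKO samples, from 8 to 42 counts per WT sample and 229 to 292 per *Abat* cKO sample. Each *Abat* cKO sample lay far above the highest WT sample. The mean rose from 1.001 ± 0.669 CPM (SD, n = 3) to 13.1 ± 1.87 CPM (SD, n = 3), a 12.6-fold increase and a log2 fold change of 3.66 (SE 0.29, 95% interval 3.01 to 4.31, edgeR adjusted p = 8.7e-06). Without WT replicate 3 the log2 fold change was 3.29, and the call held without each of the 6 samples in turn. The intervals given here and below are not adjusted for the number of genes.

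*Gzmb*, which encodes granzyme B, was the most abundant granzyme. It was at 66.1, 77.0 and 14.3 CPM in WT and at 103, 121 and 128 CPM in *Abat* cKO, so that the genotypes did not overlap while WT replicate 3 had 19.96% of the mean of the other WT samples. The log2 fold change was 1.15 (SE 0.40, 95% interval 0.26 to 2.04) and missed the threshold, with an edgeR adjusted p of 0.052. Without WT replicate 3 it was smaller and passed, at 0.70 (SE 0.10, edgeR adjusted p = 2.7e-04). It passed as well on leaving out WT replicate 2 (0.037) or *Abat* cKO replicate 1 (0.038), and over all alternatives its adjusted p ran from 8.7e-87 with no filter on low counts to 0.24 with DESeq2.

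*Gzmc* encodes granzyme C, a close relative of granzyme B from the same gene cluster, and lay near the detection limit. Its level was 0.812, 0.653 and 0.339 CPM in WT and 1.06, 1.02 and 1.20 CPM in *Abat* cKO, from 7 to 23 counts per sample. The *Abat* cKO samples were all above the WT samples, yet the log2 fold change of 0.84 (SE 0.34, 95% interval 0.09 to 1.60) did not pass (edgeR adjusted p = 0.087), and it was 0.56 without WT replicate 3 (0.26). Of its 50-base stretches, 4.14% also occur in *Gzme*, *Gzmg* or *Gzmd*, whose own counts were 0 in all samples, and reads from such stretches may be counted for either gene or for none. *Gzma*, *Gzmb*, *Prf1*, *Nkg7*, *Srgn* and *Ctsw* share no such stretch with another gene. The granzyme genes lie in different places of the GRCm38 genome, *Gzma* at chr13:113093825-113100981 and *Gzmb* and *Gzmc* at chr14:56258838-56262260 and chr14:56231441-56234656, all on the reverse strand.

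*Prf1* encodes perforin, without which granzymes do not reach the cytosol of the target. Its level was 3.97, 4.16 and 1.74 CPM in WT and 5.34, 6.07 and 6.40 CPM in *Abat* cKO. The groups did not overlap, and again WT replicate 3 was low, at 42.8% of the mean of the other WT samples. *Prf1* rose by a log2 fold change of 0.84 (SE 0.26, 95% interval 0.26 to 1.41, edgeR adjusted p = 0.032). The call was lost without *Abat* cKO replicate 2 (0.096) or replicate 3 (0.087), and without WT replicate 3 the gene passed at a smaller log2 fold change of 0.53 (0.020). Over all alternatives the adjusted p of *Prf1* lay between 1.7e-05 and 0.096.

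*Nkg7*, which encodes a membrane protein of cytotoxic granules needed for their release, had no change that passed the test. It was at 5.60, 6.20 and 2.61 CPM in WT and at 4.94, 5.61 and 5.36 CPM in *Abat* cKO. All *Abat* cKO samples lay between the low WT replicate 3 and the highest WT sample. The log2 fold change was 0.13 (SE 0.26, edgeR adjusted p = 0.75), with a 95% interval from -0.44 to 0.70 that allows a modest change in either direction. It turned to -0.16 without WT replicate 3 (SE 0.14, adjusted p = 0.42), and the adjusted p was between 0.40 and 0.88 over all alternatives.

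The sequence before the start site is shown for *Gzma*, the gene with the largest change, for *Gzmb* and *Prf1*, the main granzyme and the pore former, and for *Nkg7*, the only gene whose levels overlapped between the genotypes. Each line gives the 250 bases upstream of a RefSeq start site in GRCm38.p6, written 5′ to 3′ on the strand of the gene, with matches to 7 short motifs in capitals.
Gzma (chr13:113100982-113101231, reverse strand): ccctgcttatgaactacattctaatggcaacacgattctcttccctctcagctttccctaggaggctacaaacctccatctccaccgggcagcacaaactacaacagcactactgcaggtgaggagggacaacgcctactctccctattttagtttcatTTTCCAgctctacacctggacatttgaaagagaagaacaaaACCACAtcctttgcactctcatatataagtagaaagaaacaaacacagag
Gzmb (chr14:56262335-56262584, reverse strand): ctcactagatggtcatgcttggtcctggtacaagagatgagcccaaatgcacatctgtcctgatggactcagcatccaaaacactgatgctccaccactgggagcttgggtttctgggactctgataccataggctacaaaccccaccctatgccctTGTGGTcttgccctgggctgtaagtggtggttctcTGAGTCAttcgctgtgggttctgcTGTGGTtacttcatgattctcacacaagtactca
Prf1 (chr10:61297586-61297835, forward strand): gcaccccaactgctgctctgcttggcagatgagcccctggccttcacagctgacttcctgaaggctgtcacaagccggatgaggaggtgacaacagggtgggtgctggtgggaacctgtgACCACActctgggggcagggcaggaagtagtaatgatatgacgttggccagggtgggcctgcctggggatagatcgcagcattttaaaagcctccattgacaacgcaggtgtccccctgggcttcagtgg
Nkg7 (chr7:43436888-43437137, forward strand): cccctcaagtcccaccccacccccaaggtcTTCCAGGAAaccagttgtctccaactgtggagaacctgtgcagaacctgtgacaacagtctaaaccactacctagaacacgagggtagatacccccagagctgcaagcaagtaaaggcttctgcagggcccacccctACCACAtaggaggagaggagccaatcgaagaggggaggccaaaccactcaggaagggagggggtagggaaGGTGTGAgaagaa

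The motifs were chosen after the values had been seen and were searched on both strands as TGTGGT (Runx), TGGAAA (NFAT), TGANTCA (AP-1), TTCNNNGAA (STAT), GGTGTGA (T-box), TGACGTCA (CRE) and TGATGNAA (ATF4), where N is any base. Of the 9 genes, 8 had an entry in the promoter table, with 9 start sites since *Srgn* has 2, and *Ctsw* was not matched. A Runx match was found in 6 of these 9 windows, where 14.1% of 32851 mouse windows of the same length hold one. In *Gzmb* it occurred in 2 places, starting 34 and 93 bases before the start, with the AP-1 match TGAGTCA starting 58 bases before it. *Gzma* held a Runx match 50 bases and an NFAT match 91 bases before the start, *Prf1* a Runx match at 130 bases, and *Nkg7* a T-box match at 13, a Runx match at 83 and a STAT match at 220 bases. An NFAT match was found in 3 of the 9 windows (18.6% of all windows), and each other motif in 1 (1.55% to 7.02% of all windows). Such matches are short strings and describe the sequence only.

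**Figure D2:**
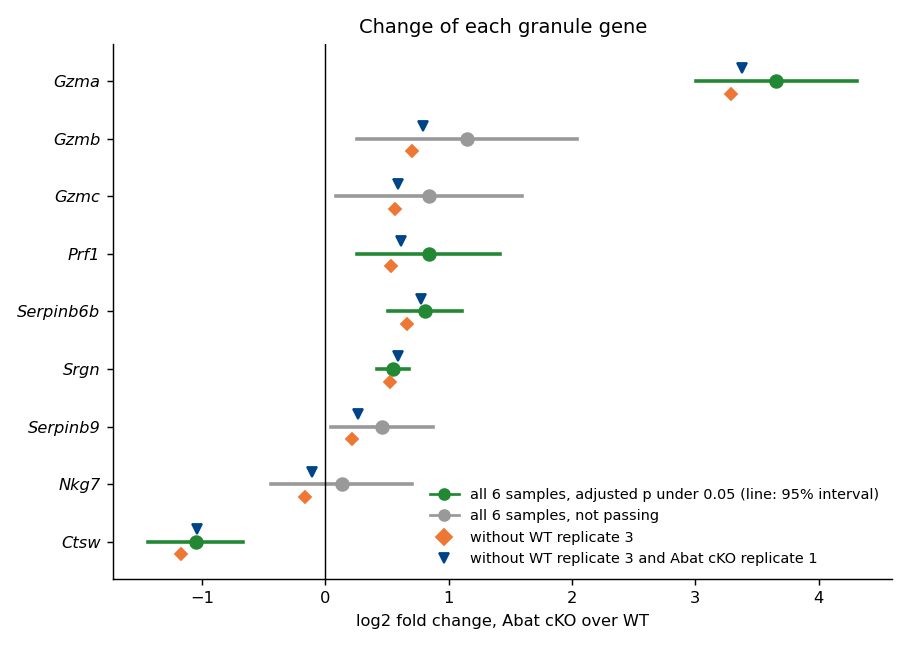
Log2 fold change of *Abat* cKO over WT for the 9 granule genes with all 6 samples (circles with 95% intervals, green where the adjusted p was under 0.05 and grey where not), without WT replicate 3 (diamonds) and also without *Abat* cKO replicate 1 (triangles). *Gzma* lies farthest to the right and *Ctsw* is the only gene to the left of 0 with all samples, and the points of *Gzmb*, *Prf1*, *Nkg7* and *Serpinb9* move to the left without WT replicate 3.

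*Srgn*, which encodes serglycin, the proteoglycan core that packs granzymes, had the smallest standard error of the 9 genes. It was at 237, 239 and 230 CPM in WT and at 314, 346 and 371 CPM in *Abat* cKO. WT replicate 3 did not stand out here, with 96.7% of the mean of the other WT samples. *Srgn* rose 1.46-fold, a log2 fold change of 0.55 (SE 0.06, 95% interval 0.42 to 0.68, edgeR adjusted p = 6.3e-05), and kept its call without each sample in turn (0.52 without WT replicate 3). It lies at chr10:62493833-62527451 on the reverse strand, and its exons overlap no other gene.

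*Ctsw* encodes cathepsin W, a papain-like cysteine protease known mainly from CD8+ T cells and NK cells, and was the only granule gene that fell. Its level was 7.67, 6.65 and 5.52 CPM in WT and 2.62, 3.38 and 3.59 CPM in *Abat* cKO, with no overlap. The log2 fold change was -1.05 (SE 0.17, 95% interval -1.43 to -0.66, edgeR adjusted p = 0.0011), a level 2.07-fold lower. Leaving out WT replicate 3 gave -1.17. The CD8+ T cell markers *Cd8a* and *Cd8b1* moved in the same direction. Their summed level was 7.50 to 24.2 CPM in WT, lowest in replicate 3, and 5.62 to 6.49 CPM in *Abat* cKO. In WT replicate 3, *Cd8a* had 15.7%, *Cd8b1* 54.5% and *Ctsw* 77.0% of the mean of the other WT samples. The summed NK cell markers moved the other way, with 1.79 to 5.27 CPM in WT and 8.17 to 10.5 CPM in *Abat* cKO. The part of CD8+ or NK cells in the *Ctsw* difference was not tested. Exons of *Ctsw* (chr19:5465043-5468507, reverse strand) overlap 9 bases of *Fibp*, 0.477% of its exonic length.

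The 2 inhibitors of granzymes were both higher in each *Abat* cKO sample than in any WT sample. *Serpinb6b* was at 19.2, 20.6 and 14.3 CPM in WT and at 26.8, 32.5 and 36.1 CPM in *Abat* cKO. It rose by a log2 fold change of 0.81 (SE 0.13, 95% interval 0.51 to 1.11, edgeR adjusted p = 0.0012), or 1.75-fold, and by 0.67 without WT replicate 3. *Serpinb9* was at 51.3, 55.6 and 28.6 CPM in WT and at 58.7, 61.1 and 67.8 CPM in *Abat* cKO. Its log2 fold change of 0.46 (SE 0.19, 95% interval 0.05 to 0.88) did not pass (edgeR adjusted p = 0.087), and without WT replicate 3 or 2 it was 0.22 (0.048) or 0.64 (0.043). The adjusted p of *Serpinb9* ran from 7.2e-13 with no filter to 0.32 over all alternatives. *Serpinb6b* (chr13:32965209-32979067) and *Serpinb9* (chr13:33003250-33017957) are neighbours on the forward strand. Of the 50-base stretches of *Serpinb6b*, 2.92% also occur in *Serpinb6c*, *Gm8436* or *Serpinb6a*, and of those of *Serpinb9*, 0.378% occur in *Serpinb9b*.

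Set against each other within a sample, *Gzma* and *Gzmb* stood in a different proportion in the 2 genotypes. The ratio of *Gzma* to *Gzmb* in CPM per kb was 0.0197, 0.0321 and 0.0391 in WT and 0.162, 0.150 and 0.171 in *Abat* cKO, so that the lowest *Abat* cKO value was several times the highest in WT. The ratio of *Gzma* to its inhibitor *Serpinb6b* was 0.104, 0.183 and 0.0595 in WT and 0.950, 0.856 and 0.926 in *Abat* cKO. These are ratios of levels and were not tested. The ratio of *Gzmb* to *Prf1* differed less, at 28.7 and 31.9 in WT replicates 1 and 2 and 33.2 to 34.4 in *Abat* cKO. WT replicate 3 was apart at 14.1, and each *Abat* cKO value lay above each WT value. The ratio of *Gzmb* to *Serpinb9* was 3.12, 3.35 and 1.21 in WT and 4.24, 4.79 and 4.55 in *Abat* cKO, with no overlap.

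WT replicate 3 was low in the granule genes beyond most of the transcriptome. On the log2 scale, its level relative to the mean of WT replicates 1 and 2 was -2.32 for *Gzmb*, where 0.0809% of genes tested were lower, and -1.53 for *Gzma*. It was -1.18 for *Prf1*, -1.14 for *Nkg7*, -0.92 for *Gzmc* and -0.90 for *Serpinb9*, all among the lowest 1.40% of genes, while the middle 90% of all genes lay between -0.42 and 0.55 (from the 5th to the 95th percentile). For *Serpinb6b*, *Ctsw* and *Srgn* the ratio was -0.47, -0.37 and -0.05. Some markers of other lymphocytes were low in the same sample, with *Cd8a* at 1.98 CPM against 12.1 and 13.2 in the other WT samples. The B cell marker *Pax5* was at 2.03 against 6.68 and 8.53. *Ighm*, the most abundant B cell marker, was not low (233 against 241 and 234), nor was the NK cell marker *Klrb1c* (0.242 against 0.0903 and 0.245). The part of other lymphocytes in the low granule genes of this sample was not tested.

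**Figure D3:**
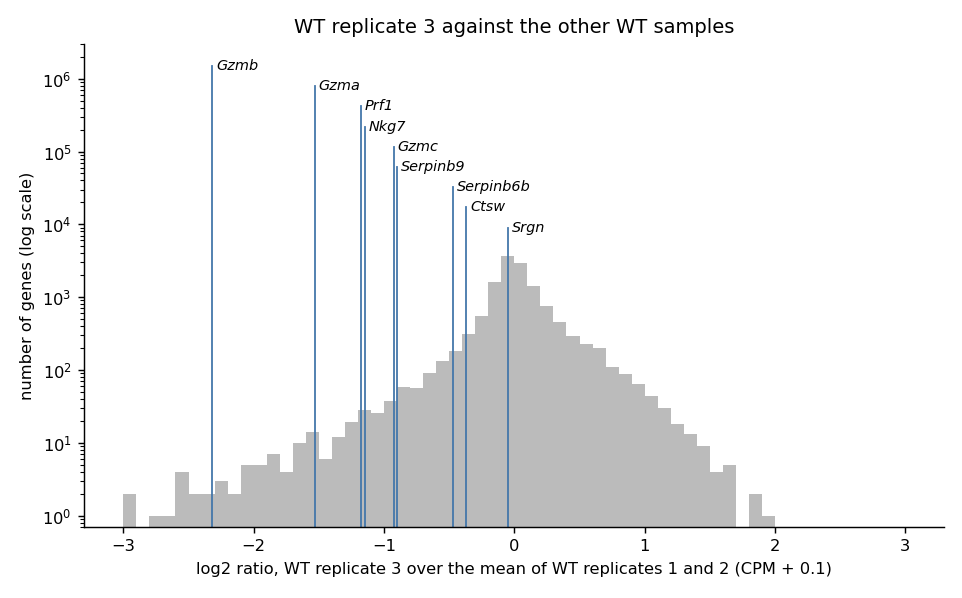
Distribution over all genes tested of the log2 ratio of WT replicate 3 to the mean of WT replicates 1 and 2 (CPM plus 0.1), as numbers of genes on a log axis, with the 9 granule genes as lines whose height carries no value. *Gzmb* lies in the far left tail at -2.32 and *Srgn* near the centre at -0.05.

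Marker lists of other cell types were read in the same fit, where 18.1% of all genes tested were higher and 13.4% lower. The CD4+ T cell list summed to 2349 to 2404 CPM in WT and 2063 to 2153 CPM in *Abat* cKO, with 4 of 6 genes lower, and *Cd4* alone to 487 to 525 and 428 to 439 CPM, so that the labelled cell type was present in every sample. Both CD8+ T cell markers were lower in *Abat* cKO, *Cd8a* by a log2 fold change of -2.93 (edgeR adjusted p = 0.0042, and -3.40 without WT replicate 3). For *Cd8b1* the log2 fold change was -0.86 (edgeR adjusted p = 0.014), and the call held in 4 of the 6 fits with 1 sample left out (up to 0.061). Of the 9 NK cell markers, 6 were tested and 4 were higher. *Ncr1*, *Klrb1c* and *Klra7* among these passed the filter on low counts only through the *Abat* cKO samples. *Klrk1*, the other one called, had 30, 39 and 6 counts in WT and also needed the *Abat* cKO samples to pass. Its call held in 2 of the 6 fits with 1 sample left out (edgeR adjusted p up to 0.11). A lower call was therefore hardly possible for these 4 genes, and the count of 4 does not support a rise. The list had a summed level of 1.79 to 5.27 CPM in WT, lowest in replicate 3, and 8.17 to 10.5 CPM in *Abat* cKO. *Ncr1* had 0 counts in WT replicate 3, 0.181 and 0.449 CPM in the other WT samples and 0.624 to 1.30 CPM in *Abat* cKO. *Klrb1c* was not low in WT replicate 3, at 0.242 CPM against 0.0903 and 0.245 in the other WT samples. It was at 0.857 to 1.02 CPM in *Abat* cKO. The levels of *Klrd1* and *Klrc1* overlapped between the genotypes.

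Of the 4 gamma delta T cell markers, the 2 tested, *Trdc* and *Sox13*, were higher, and the list summed to 2.61 to 4.61 CPM in WT and 8.07 to 8.32 CPM in *Abat* cKO. B cell markers were lower for 5 of 6 genes (238.6 to 257.9 CPM in WT and 98.4 to 102.3 CPM in *Abat* cKO, most of it from *Ighm*). These counts stand against 18.1% of all genes tested higher and 13.4% lower. *Cd79a*, among the 5 lower B cell markers, passed the filter only through the WT samples. It had 30, 36 and 11 counts in WT and 4, 5 and 4 in *Abat* cKO, so a higher call was hardly possible for it. Of 6 mast cell and basophil markers 1 was tested and did not pass, *Mcpt4* was at 0 in all samples, and the sum was 0.823 to 1.18 CPM in WT and 2.02 to 2.13 CPM in *Abat* cKO. None of the 6 myeloid markers passed the filter (0.581 to 0.857 and 0.908 to 1.85 CPM). The NK cell and gamma delta T cell sums thus lay higher in *Abat* cKO together with *Gzma*, *Prf1* and the other granule genes that rose. So did the mast cell and myeloid cell sums, but these rest on few counts and their members differed. *Kit*, the tested mast cell marker, and *Lyz2*, *Itgam* and *Adgre1* of the myeloid list overlapped between the genotypes. *S100a8* went the other way, with 2, 4 and 1 counts in WT and 0 in each *Abat* cKO sample. The part of such cells in the granule gene differences was not tested.

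**Figure D4:**
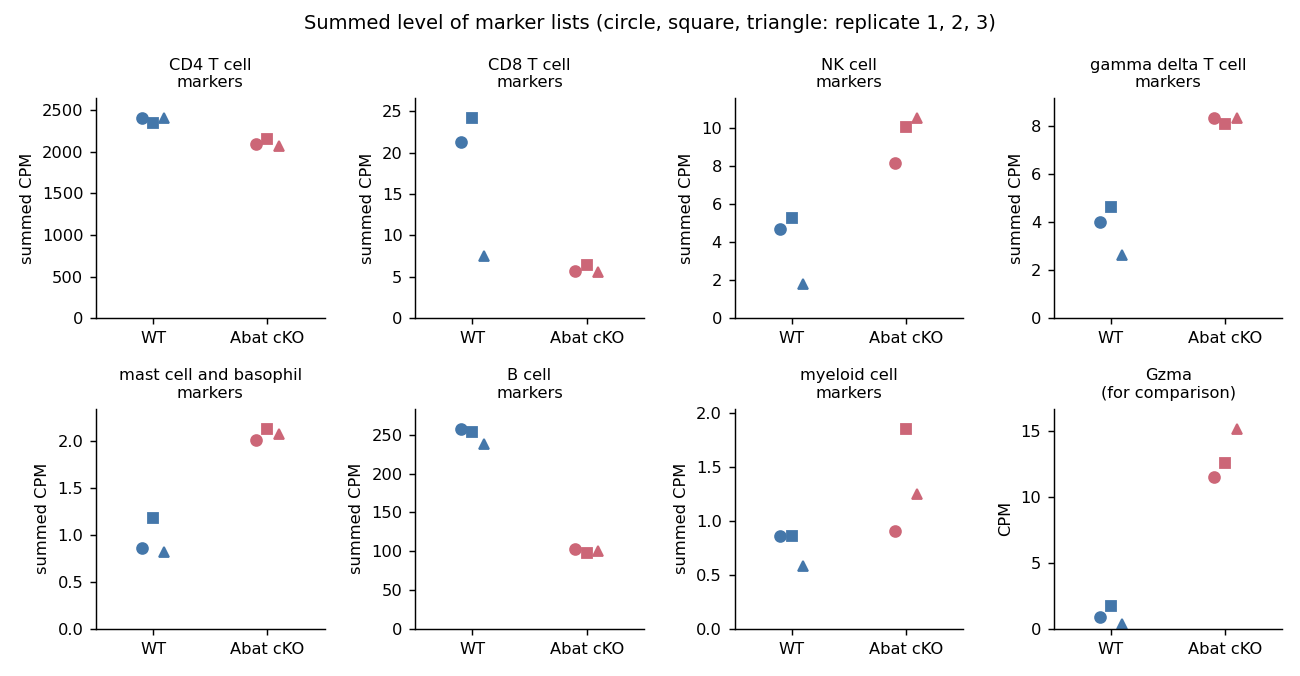
Summed level in CPM of 7 cell type marker lists in 3 WT (blue) and 3 *Abat* cKO (red) samples, with *Gzma* for comparison and a separate linear axis from 0 in each panel. CD8 and B cell markers lie lower and NK and gamma delta markers higher in *Abat* cKO, and WT replicate 3 (triangle) has the lowest WT sum of NK cell markers, 1.79 CPM.

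Among the other genes of the granzyme system, few were expressed. Of 7 other granzyme genes only *Gzmm*, which encodes the methionine-cleaving granzyme M, was tested. It was at 1.309, 1.633 and 1.888 CPM in WT and at 1.36, 1.07 and 1.09 CPM in *Abat* cKO, with overlap, and its log2 fold change of -0.45 did not pass (SE 0.26, edgeR adjusted p = 0.22). *Gzmd*, *Gzme*, *Gzmg* and *Gzmn* had 0 counts in all 6 samples, and *Gzmf* and *Gzmk* reached at most 0.052 CPM.

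Of 11 related serpins 4 were tested and 2 were higher, none lower (median log2 fold change 0.98), where 18.1% of all genes tested were higher. *Serpina3g*, which encodes an inhibitor of cysteine cathepsins, was at 8.94, 11.4 and 3.34 CPM in WT and at 16.5, 19.7 and 17.2 CPM in *Abat* cKO, and rose by 1.15 on the log2 scale (edgeR adjusted p = 0.012). Its neighbour *Serpina3f* rose by 1.05 (0.023) and was also low in WT replicate 3 (2.81 CPM), without which the log2 fold changes were 0.80 and 0.68. Both calls, and with them the count of the list (0 in place of 2), were lost without *Abat* cKO replicate 2 (0.054 and 0.077) and with DESeq2 (0.077 and 0.13). *Serpinb6a* had a log2 fold change of 0.21 (0.29).

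Of 10 lysosomal proteases and regulators of granzyme activation 9 were tested, 6 were higher and 1 was lower (median log2 fold change 0.38). The share called was 77.8%, against 31.5% of all genes tested. *Cst7*, which encodes cystatin F, an inhibitor of the cathepsin that activates progranzymes, rose by 0.53 on the log2 scale (edgeR adjusted p = 4.5e-05). *Ctsb*, encoding cathepsin B, which is thought to protect killer cells from perforin at their own surface, rose by 0.43 (3.6e-05). *Ctss*, encoding cathepsin S, fell by 1.07 (7.7e-06), from 42.0 to 53.7 CPM in WT to 22.5 to 23.1 CPM in *Abat* cKO. *Ctsc*, named here after its values had been seen because it encodes the activating protease, rose by 0.32 (0.0035).

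The 20 genes of granule biogenesis and exocytosis were all tested and went both ways, with 5 higher and 6 lower (median log2 fold change -0.03). The share called was 55%, against 31.5% of all genes tested (18.1% higher and 13.4% lower). *Cd63*, named here because of the filter, is among the 5 higher but passed the filter only through the *Abat* cKO samples. It had 6, 6 and 8 counts in WT and 17, 12 and 16 in *Abat* cKO, so a lower call was hardly possible for it. With at least 10 counts required in every sample, 19 genes of the list were tested, 4 were higher and 6 lower. *Sytl2*, which encodes a Rab27 effector that tethers granules at the plasma membrane, fell by 1.37 on the log2 scale (edgeR adjusted p = 2.2e-06), from 19.99, 20.16 and 22.60 CPM in WT to 8.87, 7.97 and 7.33 CPM in *Abat* cKO. *Unc13d*, encoding the priming factor Munc13-4, rose by 0.35 (1.7e-04), and *Stx11*, encoding a fusion protein of the granule, fell by 0.32 (0.0033). The number of calls in this list was 6 or 7 without any of the samples except *Abat* cKO replicate 1, and 4 when counts were scaled to the spike-in controls.

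Of 12 enzymes that build or modify glycosaminoglycan chains such as those of serglycin, 11 were tested, 4 were higher and none was lower (median log2 fold change 0.11), a share of 36.4% that lies near the 31.5% of all genes tested that changed. *Chst11*, encoding a chondroitin 4-O-sulfotransferase, rose by 0.86 (edgeR adjusted p = 0.0013), from 4.94 to 7.39 CPM in WT to 9.98 to 12.5 CPM in *Abat* cKO. *B3gat3*, encoding the enzyme that completes the linker of the chain, rose by 0.40 (0.0042), and *Csgalnact2*, which starts chondroitin chains, by 0.27 (0.017). The call of *Csgalnact2* was lost without WT replicate 1 (0.069), where 2 genes of the list passed.

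Killer cells also use death ligands of the TNF family and secrete cytokines. Of 5 death ligands and effector cytokines 3 were lower and 1 was higher (median log2 fold change -0.38), where 13.4% of all genes tested were lower and 18.1% higher. *Fasl*, encoding Fas ligand, fell by 2.54 on the log2 scale (SE 0.14, edgeR adjusted p = 7.0e-07), from 14.6, 14.0 and 18.5 CPM in WT to 2.82, 2.78 and 2.45 CPM in *Abat* cKO. In contrast to most granule genes, *Fasl* was highest of the WT samples in replicate 3. *Lta*, encoding lymphotoxin alpha, fell by 0.49 (0.012) and *Tnfsf10*, encoding TRAIL, by 0.38 (0.035). *Ifng*, encoding interferon gamma, rose by 1.12 (0.042), from 10.4, 14.1 and 2.47 CPM in WT to 19.5, 20.9 and 19.3 CPM in *Abat* cKO, and by 0.68 without WT replicate 3.

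Of these 4 calls only that of *Fasl* held without each sample in turn. *Lta* was lost without WT replicate 1 (0.051) or 2 (0.053), *Tnfsf10* without WT replicate 1 (0.14) or 2 (0.076) or *Abat* cKO replicate 1 (0.088) or 2 (0.12), and *Ifng* without WT replicate 1 (0.088) or *Abat* cKO replicate 2 (0.12) or 3 (0.072). The list had 1 call without WT replicate 1, and 2 calls when WT replicate 2 or *Abat* cKO replicate 2 was left out.

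Of 17 regulators of the cytotoxic programme, all tested, 7 were higher and 4 were lower (median log2 fold change 0.22). The share called was 64.7%, against 31.5% of all genes tested. *Runx3*, encoding a transcription factor of the cytotoxic lineage, rose by 0.93 on the log2 scale (edgeR adjusted p = 2.7e-05), from 53.5, 53.1 and 41.5 CPM in WT to 93.8, 89.4 and 100.02 CPM in *Abat* cKO. *Il2ra*, encoding the alpha chain of the IL-2 receptor, rose by 0.56 (3.3e-05). *Crtam*, encoding an adhesion receptor known to mark cytotoxic CD4+ T cells, fell by 1.91 (3.2e-05), from 12.2 to 20.2 CPM to 4.16 to 4.92 CPM.

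Another pair of regulators was picked out after the values had been seen because their directions differed. *Eomes*, encoding the T-box factor eomesodermin, was at 19.1, 21.6 and 4.99 CPM in WT and at 3.83, 4.50 and 4.47 CPM in *Abat* cKO, and fell by 1.84 on the log2 scale (SE 0.43, edgeR adjusted p = 0.0089). WT replicate 3 lay close to the *Abat* cKO samples for this gene, and without it the log2 fold change was -2.26. *Prdm1*, encoding the repressor Blimp-1, was at 0.993, 0.898 and 0.581 CPM in WT and at 3.93, 4.08 and 5.83 CPM in *Abat* cKO, and rose by 2.47 (SE 0.26, 6.7e-05). Both calls held without each sample in turn.

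Of 12 genes whose products granzymes cleave in target cells, 11 were tested and 2 were higher (median log2 fold change 0.02), where 18.1% of all genes tested were higher. *Hmgb2*, encoding a chromatin protein cleaved by granzyme A, rose by 0.78 on the log2 scale (edgeR adjusted p = 5.0e-07), from 338 to 352 CPM in WT to 572 to 608 CPM in *Abat* cKO. *Set*, encoding an inhibitor of the nuclease that granzyme A releases, rose by 0.15 (0.014). The call of *Set* was lost without WT replicate 1 (0.061) or 3 (0.080) or *Abat* cKO replicate 2 (0.072) or 3 (0.11). Without WT replicate 1 only *Hmgb2* of the list passed.

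**Figure D5:**
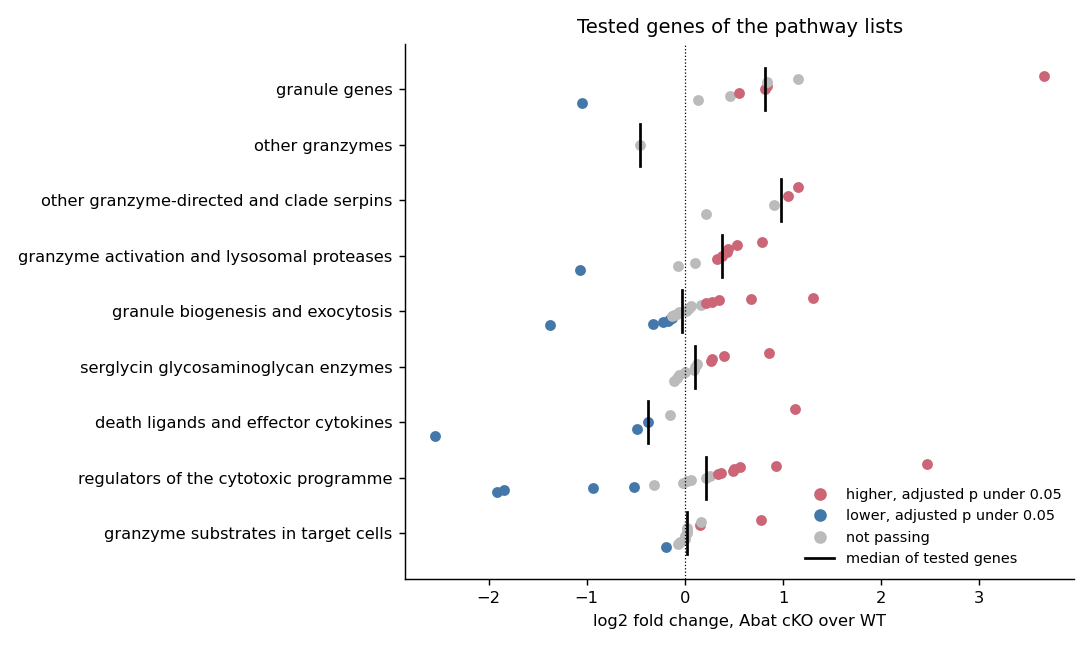
Log2 fold change of *Abat* cKO over WT for each tested gene of the granule genes and of 8 lists of related genes, 1 point per gene, red where higher, blue where lower and grey where the test was not passed, with black bars at the medians. *Gzma* is the highest point at 3.66 and *Fasl* the lowest at -2.54.

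Genes with patterns most like those of *Gzmb* and *Prf1* were ranked by Pearson's r of log2 CPM over the 6 samples among genes whose log2 CPM averaged 4 or more, as a description, since samples share genotype and depth. For *Gzmb* these were *Ly6c1* (r = 0.998), *Ly6a* (0.997) and *Igtp* (0.996) of 7596 genes, and for *Prf1* they were *Ly6a* (0.998), *Cd47* (0.996) and *Ly6e* (0.995) of 7597. *Ly6c1*, encoding a surface protein of memory and effector T cells, was at 25.4, 30.3 and 5.86 CPM in WT and at 38.6, 40.7 and 49.8 CPM in *Abat* cKO. *Ly6a*, encoding Sca-1, was at 384, 414 and 115 CPM in WT and at 609, 658 and 711 CPM in *Abat* cKO. *Igtp*, encoding a GTPase induced by interferon gamma, was at 506, 507 and 324 CPM in WT and at 549, 562 and 577 CPM in *Abat* cKO. WT replicate 3 was the lowest of the 6 samples for each of these genes. This follows from the way they were picked, since that sample was also the lowest for *Gzmb* and *Prf1*.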

How the data were processed

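The authors depleted ribosomal RNA and sequenced naive CD4+ T cells activated for 36 h, from 3 WT and 3 *Abat* cKO samples. The deposited table holds a raw count, always a whole number, for each gene and sample, and a gene length in base pairs. Another 6 columns of normalized counts, and the authors' own comparison (group means, log2 fold changes, adjusted p-values), were not used here. The submitters' notes name Trim Galore 0.60, STAR 2.7 and RSEM 1.31, whereas TopHat2 and HTSeq with GRCm38 are given in the supplementary methods, so which of them made the counts, and whether strand was used, is not settled here.

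The raw counts of genes (19566016 to 24396746 per sample, without 92 spike-in controls) were scaled by TMM and filtered with filterByExpr, and genotype was tested by the two-sided quasi-likelihood test of edgeR 4.0.16 (R 4.3.3), with no other covariate. P-values were adjusted by the Benjamini-Hochberg method over 13605 genes, with a threshold of 0.05. The biological coefficient of variation was 0.0589. Levels are CPM with TMM scaling, and levels between genes were compared only per kb of the deposited length. Low counts, such as 8 to 42 for *Gzma* in WT, carry a larger counting error than the others. In a simulation of this comparison with 13400 genes, 34 of 50 true changes of 1.5-fold were found, as were 39 of 50 of 2-fold, 48 of 50 of 4-fold and 47 of 50 of 8-fold, and 14 calls were false.

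The granule genes, the lists of related genes and the marker lists were chosen with earlier results of these data known, and counts and medians over them are descriptions. Named in each list of related genes were the 3 tested genes with the smallest adjusted p and 1 called in the other direction, and marker genes could be named with their level. The comparison was repeated with scaling by DESeq2's size factors, by library size only or to the spike-in counts, with DESeq2 1.42.0, no filter, at least 10 counts in every sample, the replicate number as a block, and leaving out each sample. Leaving out WT replicate 3 together with *Abat* cKO replicate 1 was added after seeing the data. Coordinates and exons are those of GENCODE for GRCm38, shared stretches of 50 bases were counted in its transcripts, and promoter windows are those of RefSeq for GRCm38.p6. Results for some genes of the lists are not reported here.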

Additional observations from a re-analysis of the deposited data

How the results depend on the processing

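The granule genes with an adjusted p under 0.05 numbered 5 with DESeq2, with its size factors in edgeR, with library size as the only scaling and with 10 or more counts required in every sample (where 7 of the 9 were tested), 7 with spike-in scaling and with no filter, and 4 to 7 when each sample was left out in turn. *Nkg7* ranged from -0.16 (without WT replicate 3) to 0.36 (without WT replicate 2) with 1 sample left out, and reversed to -0.11 without that sample and *Abat* cKO replicate 1. Over 37 named genes, 453 alternative values kept their direction and side of the threshold, 23 newly passed, 38 no longer passed and 2 reversed. The cause was not tested. Of all genes tested, 4291 changed (2464 higher and 1827 lower), against 2524 with spike-in scaling (1339 and 1185) and 4424 with library size only (2139 and 2285), and 3234 to 4540 with 1 sample left out. With spike-in scaling, 4 genes of granule biogenesis and exocytosis, 2 glycosaminoglycan enzymes and 1 granzyme substrate passed. Without WT replicate 3 and *Abat* cKO replicate 1, 13 genes of biogenesis and exocytosis did. With DESeq2, 0 related serpins, 2 glycosaminoglycan enzymes and 2 death ligands and cytokines passed. With 1 sample left out, the calls were 6 to 11 for biogenesis and exocytosis, 2 to 4 for glycosaminoglycan enzymes, 1 to 5 for death ligands and cytokines, 1 to 3 for substrates, 0 to 2 for related serpins, 7 to 8 for lysosomal proteases, 11 to 12 for regulators and 0 for other granzymes.

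The replicate numbers did not pair the samples. Deviations of same-numbered samples from their group means had correlations of -0.29, 0.12 and -0.28, and not every sample correlated best with its own number, the highest value being 0.38 between WT replicate 3 and *Abat* cKO replicate 1. With a replicate block, 3444 genes and 6 granule genes passed, *Gzmb* among them (edgeR adjusted p = 0.041). Depth limits *Gzma* and *Gzmc* in WT most, with 7 to 42 counts per sample.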

Other observations

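The 3 granzyme genes and both serpin genes have related genes close by, several of which had no counts. On mouse chromosome 14, *Gzmb* and *Gzmc* share a stretch with *Gzmd*, *Gzme*, *Gzmf*, *Gzmg* and *Gzmn*, of which 4 had 0 counts in all samples. Next to *Gzma* on chromosome 13, *Gzmk* had 0 counts in 5 of the 6 samples and 1 count in the remaining one. On the same chromosome, *Serpinb6b* and *Serpinb9* are followed by *Serpinb9b*, which was at 0.361, 0.571 and 0 CPM in WT and at 0.454, 0.788 and 0.572 CPM in *Abat* cKO, and by *Serpinb9c* to *Serpinb9g*, which had 0 counts in all samples. In *Abat* cKO, replicate 1 was the lowest sample for 8 of the 9 granule genes. The share of all genes tested for which it was lowest was not counted. Its log2 ratios to the mean of *Abat* cKO replicates 2 and 3 ran from -0.06 (*Gzmc*) to -0.40 (*Ctsw*). Only *Ctsw* and *Serpinb6b* (-0.36) lay below the 5th percentile of all genes tested (-0.34). WT replicate 3, lowest in WT for 9 of 9, had ratios from -0.05 (*Srgn*) to -2.32 (*Gzmb*).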
